A study of Rattus norvegicus with 4 samples.

Results

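Clustered binding sites of the glucocorticoid receptor (GR) in the rat hippocampus were examined: places on a chromosome where GR reads after a high dose of corticosterone accumulated at several separate points within 20 kb. The sites were selected on measured reads. A site was a run of adjacent 500-base bins that each held at least 5 reads of the GR library at 3000 µg/kg corticosterone and at most 2 reads of both IgG control libraries together. Of 4387 sites in all, 967 (22.0%) had the centre of another site 1.5 to 20 kb from their own and are called clustered here. The 3386 isolated sites (77.2%) had no other site within 20 kb and served as the comparison, and 34 sites with a neighbour only at less than 1.5 kb belonged to neither. Binding was measured by chromatin immunoprecipitation followed by sequencing, in which a GR antibody (H-300) or normal rabbit IgG, the background control, pulls down sheared chromatin and the recovered DNA is read.

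The 4 groups were GR and IgG at 3000 µg/kg and GR and IgG at 300 µg/kg, with 1 library each. These are called the high dose and the low dose below. All animals were male Sprague-Dawley rats of 8 weeks that had been adrenalectomized 3 days earlier, which takes away the main source of the endogenous hormone. They received a corticosterone complex by injection, with 6 rats in a group, and tissue was taken after 1 hour. Per the labels, chromatin of 6 hippocampal hemispheres was pooled, and a library therefore averages over animals and over all cell types of the tissue. Rats left undisturbed after adrenalectomy and the mineralocorticoid receptor antibody, which the labels also name, were not analysed here. Each library held 468802 reads, of which 458480 to 461308 lay on chromosomes 1 to 20 and X. With 1 library per group, each p-value below compares reads or sites within these libraries and not doses as conditions. Intervals are 95% intervals and cover counting error only.

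GR is a ligand-activated transcription factor. Bound by a glucocorticoid, it enters the nucleus and binds DNA at short palindromic response elements or together with other factors, often far from gene promoters. In many cell types several GR-bound enhancers lie near the same gene, and in the hippocampus the receptor takes part in the response to stress levels of corticosterone. Whether neighbouring sites behave alike at a lower level of hormone can be read here in the GR library at the low dose, the only library that had no part in choosing the sites. The files use the rat build rn4. No genome or annotation of that build was used here, so regions are given by position, counted from 1, with no gene names and no sequences.

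The clustered sites formed 421 groups, a group being a chain in which each site lay within 20 kb of the next. Most groups were pairs: 329 (78.1%) held 2 sites, 70 held 3, 14 held 4, 6 held 5, and the largest groups held 6 and 7. Groups spanned 2.0 to 48.5 kb, with a median of 11 kb. The nearest neighbour of a clustered site lay at a median distance of 7.50 kb (quartiles 3.50 and 13.3 kb), and 29 clustered sites also had a neighbour closer than 1.5 kb.

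Short distances between sites were the most frequent. Of the intervals between consecutive sites, 188 measured less than 5 kb, 149 from 5 to 10 kb, 108 from 10 to 15 kb and 104 from 15 to 20 kb. The number fell on beyond the limit, with 92 intervals from 20 to 25 kb and 47 from 40 to 45 kb, and was 36 from 95 to 100 kb. The limit of 20 kb thus fell on a slope and at no gap in the distribution.

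**Figure D1:**
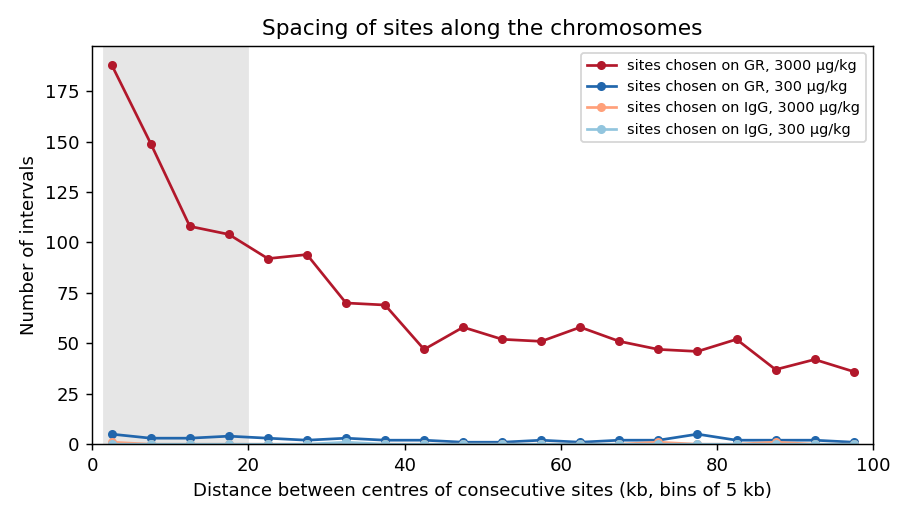
Number of intervals between centres of consecutive sites (vertical axis) by distance in kb (horizontal axis, bins of 5 kb), for sites chosen on each of the 4 libraries. The shaded range marks 1.5 to 20 kb. Intervals of sites chosen on GR at the high dose number 188 in the first bin and 36 in the last, and the other libraries have at most 5 in any bin.

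The same rule was applied with the other libraries in the place of GR at the high dose. The IgG library at the high dose, set against both GR libraries, gave 255 sites of which 2 were clustered. The IgG library at the low dose gave 150 sites with 0 clustered, for which the interval reaches a share of 2.43%. The GR library at the low dose, set against both IgG libraries, gave 608 sites of which 27 (4.44%, 2.95 to 6.40%) were clustered. A clustered share rises with the number of sites, and the sites at the high dose were therefore also counted with stricter minimums. With at least 11 GR reads 675 sites remained at the high dose and 60 of them (8.89%, 6.85 to 11.3%) were clustered, and with at least 12 reads 41 of 535 (7.66%, 5.56 to 10.3%). The first of these intervals lay above that of the GR library at the low dose and the second overlapped it.

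Clustered sites were found on every chromosome examined. Their share of sites ranged from 16.4% on chromosome 20 (19 of 116) to 29.8% on chromosome 10 (89 of 299, interval 24.6 to 35.3%). Chromosomes 10 and 12 also had the most sites per Mb, 2.70 and 2.74, whereas X had 0.243 sites per Mb and 7 clustered among 39. The interval of chromosome 10 did not overlap those of chromosomes 2, 4, 16 and 20, and these shares were not tested against each other.

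At the dose that chose them, clustered sites held 5 to 69 GR reads with a median of 7, and isolated sites 5 to 74 with a median of 6. These counts describe the choice and were not tested. At least 20 reads were held by 71 clustered sites (7.34%) and by 100 isolated sites (2.95%). Of the clustered sites, 75 (7.76%) were 2 or 3 bins wide, against 4.55% of isolated sites that were 2 or more bins wide. No IgG read of either dose fell in 582 clustered sites (60.2%) and in 66.7% of isolated ones. Bins just outside the limit, with 4 GR reads, numbered 3307 and held 0.639 GR reads each at the low dose. Those just inside, with 5 reads, numbered 1613 and held 0.844.

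The first comparison asked whether clustered sites were occupied after the low dose, and whether more or less often than isolated ones. In sum they held 1747 GR and 208 IgG reads at the low dose, a ratio of 8.40, and isolated sites 4909 and 599, a ratio of 8.20. IgG reads had been limited by the choice of sites, which raises both ratios. Per site, GR reads at the low dose ranged from 0 to 20 in clustered and from 0 to 28 in isolated sites, with a median of 1 in both. At 373 clustered sites (38.6%) there was no GR read at this dose, beside 42.6% of isolated sites and 41.6% of all sites.

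Each site's GR reads at the low dose were tested against the density of the same library within 10 kb outside all sites, or its genome mean if that was larger (exact one-sided Poisson test, Benjamini-Hochberg adjusted over all 4387 sites, threshold 0.05). Reads exceeded this background at 324 of 967 clustered sites (33.5%, 30.5 to 36.6%), beside 31.4% of all sites tested. Of isolated sites 1042 of 3386 (30.8%, 29.2 to 32.4%) passed. The difference was 2.73 percentage points with an interval from -0.573 to 6.13 (two-sided Fisher's exact p = 0.107, adjusted p = 0.537 over 5 comparisons). Overlap with sites chosen on the GR library at the low dose itself, which need 5 reads there, was found at 92 clustered sites (9.51%, 7.74 to 11.5%) and at 6.79% (5.97 to 7.69%) of isolated sites, intervals that do not overlap but that take no account of strength at the high dose. A call took 2 to 3 reads at most sites: none of the sites with 1 read, 459 of the 637 with 2 and 356 of the 362 with 3 passed.

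The share of occupied sites rose with strength at the high dose, and within classes of strength no difference between clustered and isolated sites was detected. Among sites with 5 reads at the high dose, 18.8% of 256 clustered and 18.2% of 1240 isolated sites passed at the low dose (difference 0.524 points, -4.33 to 6.14). The shares were 26.2% and 28.1% with 6 to 7 reads (difference -1.86 points, -7.42 to 4.18). With 8 to 11 reads they were 35.3% and 36.9% (difference -1.61 points, -8.67 to 5.80). With 12 or more reads, 124 of 208 clustered (59.6%) and 276 of 435 isolated sites (63.4%) passed, a difference of -3.83 points (-11.9 to 4.09). The adjusted p of each of these 4 comparisons was 0.859 (Fisher's exact test). The last class has no upper limit, and its clustered sites were stronger, with 19.8 GR reads at the high dose on average against 17.9 at isolated ones. Split after seeing the data, it gave 48.9% of 137 clustered and 58.5% of 335 isolated sites with 12 to 19 reads (difference -9.60 points, -19.3 to 0.257; Fisher's exact p = 0.0661, adjusted p = 0.132 over both classes). With 20 or more reads the shares were 80.3% of 71 and 80.0% of 100 sites (difference 0.282 points, -12.3 to 12.0). Each of the 4 intervals still includes differences of 4 points in either direction.

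**Figure D2:**
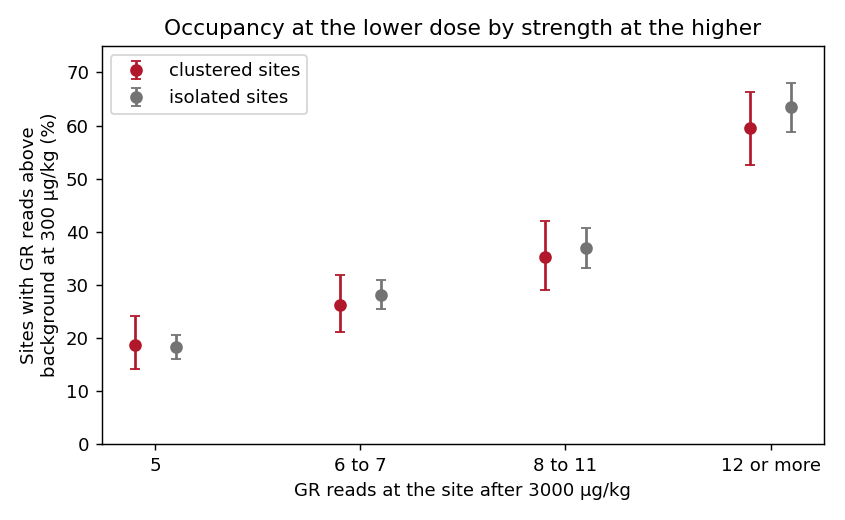
Percentage of clustered (red) and isolated (grey) sites with GR reads above background at the low dose (vertical axis) by number of GR reads at the high dose (horizontal axis), with exact 95% binomial intervals. The share rises from 18.8% to 59.6% for clustered and from 18.2% to 63.4% for isolated sites, and the intervals overlap in each class.

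The comparison over all sites depended on the background. With the genome mean alone as background, 385 clustered sites (39.8%) and 1163 isolated sites (34.3%) passed, beside 35.6% of all sites, and the difference of 5.47 points (2.02 to 8.96) was past the threshold (Fisher's exact adjusted p = 0.0101), whereas in none of the 4 strength classes was it (lowest adjusted p = 0.703). The mean number of GR reads expected from the local background at the low dose was 0.195 per clustered and 0.148 per isolated site. With p-values adjusted in the same family of comparisons, the difference also passed with unshifted reads (4.61 points, Fisher's exact adjusted p = 0.0448). It turned negative, without passing after adjustment, with sites of at least 8 reads (-7.43 points, Fisher's exact p = 0.0467, adjusted p = 0.0522). The strength classes of that setting are not given here. The difference was also negative, without passing, with sites free of IgG reads (-2.97 points, Fisher's exact adjusted p = 0.256) and on fragments.

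Mean GR reads per site at the low dose were compared in the same classes. Clustered sites with 5 reads at the high dose held 0.895 reads (0.782 to 1.02) and isolated ones 0.809 (0.760 to 0.861). In the class of 12 or more reads they held 4.02 (3.75 to 4.30) and 3.60 (3.42 to 3.78). The intervals overlapped in all 4 classes, only narrowly in the last, in which clustered sites were the stronger at the high dose. Split as above, its clustered and isolated sites held 2.80 (2.52 to 3.09) and 2.90 (2.72 to 3.09) with 12 to 19 reads, and 6.38 (5.81 to 7.00) and 5.92 (5.45 to 6.42) with 20 or more.

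Occupancy at the low dose showed no steady course with the distance to the nearest site. The test was passed by 31.2% of 295 sites with a neighbour at 1.5 to 5 kb, 36.5% of 260 at 5 to 10 kb, 31.7% of 183 at 10 to 15 kb and 34.5% (27.9 to 41.5%) of 200 at 15 to 20 kb. Just outside the limit, 26.0% (18.7 to 34.3%) of 131 sites with a nearest neighbour at 20 to 25 kb passed, and further out 26.1% of 153 at 25 to 30 kb, 32.7% of 364 at 30 to 50 kb and 32.0% of 656 at 50 to 100 kb. By size of group, 33.6% of the 658 sites in pairs, 29.5% of the 210 in groups of 3 and 41.4% (31.6 to 51.8%) of the 99 in groups of 4 to 7 passed. Sites of the largest groups also held more GR reads at the high dose, 11.8 on average against 9.26 in pairs.

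Within a pair, no relation between the sites in passing at the low dose was detectable. Both sites passed in 41 of 329 pairs (12.5%), 1 of them in 139 (42.2%) and neither in 149 (45.3%). The right-hand site passed in 36.0% of the 114 pairs whose left-hand site did, and in 30.7% of the other 215. The odds ratio was 1.27 with an interval of 0.760 to 2.10 (two-sided Fisher's exact p = 0.387). Over all 421 groups, 178 had no site past the threshold, 171 had 1 and 72 had 2 or more, and every site passed in 43.

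The order of strength within a pair was shared between the doses more often than not. In 210 pairs the sites differed in GR reads at both doses, and in 151 of them (71.9%, 65.3 to 77.9%) the site with more reads at the high dose also had more at the low dose (two-sided exact binomial test against equal odds, p = 1.74e-10). Isolated sites stronger at the high dose also held more GR reads at the low dose, 3.60 each with 12 or more reads against 0.809 with 5. Equal odds were thus not to be expected of any sites of unequal strength, paired or not. The order was not compared with that of sites outside pairs, so the test does not set pairs apart. In the 288 pairs that differed at the high dose, the stronger sites held 3636 reads and the weaker 1979 at that dose. At the low dose the same stronger sites held 722 reads and the weaker 327, a ratio of 2.21 (1.93 to 2.52). At the high dose the strongest site of a pair took 50.0 to 90.7% of the pair's reads, with a median of 58.3%. Across pairs the GR reads of left-hand and right-hand sites were only weakly related, with a Spearman's rho of 0.128 at the high dose and 0.0873 at the low dose over 329 pairs of the same libraries.

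Next, the stretches between the sites of a group were compared with the surroundings of isolated sites. Leaving out 500 bases next to each site, the 498 stretches between neighbouring sites covered 4083500 bases. They held 324 GR reads per Mb (307 to 342) and 273 IgG reads per Mb (257 to 289) at the low dose. From 1.5 to 20 kb around isolated sites, 122907000 bases held 238 GR and 233 IgG reads per Mb. The ratio of GR to IgG was thus 1.19 between clustered sites and 1.02 around isolated ones, an odds ratio of 1.16 (1.07 to 1.26; two-sided Fisher's exact test, p = 0.000319). With a plus and a minus read 50 to 140 bases apart counted once as a fragment, the odds ratio was 1.15 and did not pass the threshold (Fisher's exact p = 0.0702), nor did it with sites of at least 8 GR reads (1.10, p = 0.263, Fisher's exact) or with sites free of IgG reads (1.10, p = 0.126, Fisher's exact).

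The excess between clustered sites did not show in every stretch, and whether it was spread evenly was not tested. GR reads outnumbered IgG reads at the low dose in 201 stretches, equalled them in 128 and were fewer in 169. The stretch with most, on chromosome 8 from 52002501 to 52017000, held 33 GR and 7 IgG reads, and without it the odds ratio was 1.14 (Fisher's exact p = 0.00177). Of its GR reads, 8 and 20 lay in a pair of strong bins, from 52014001 and 52015001, that the limit on IgG reads had kept from being sites. Without any bins of 5 or more GR reads at the high dose, the odds ratio of all stretches was 1.12 (Fisher's exact p = 0.00635). Bins with 3 or 4 GR reads at the high dose, just under the minimum for a site, made up 1.36% of the bins between clustered sites and 0.511% of those around isolated sites. These bins held 0.505 and 0.553 GR reads each at the low dose.

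IgG reads were also denser between clustered sites than around isolated ones, by a factor of 1.17 at the low dose and 1.25 at the high dose, against 1.36 and 1.78 for GR. Both IgG densities around isolated sites, 233 and 234 reads per Mb, stood above the genome mean of 169. The part of this local background in the differences between clustered and isolated sites was not tested, beyond the use of IgG as the denominator above. With the IgG library of the high dose as denominator, the odds ratio of GR reads at the low dose was 1.09 (Fisher's exact p = 0.0418).

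**Figure D3:**
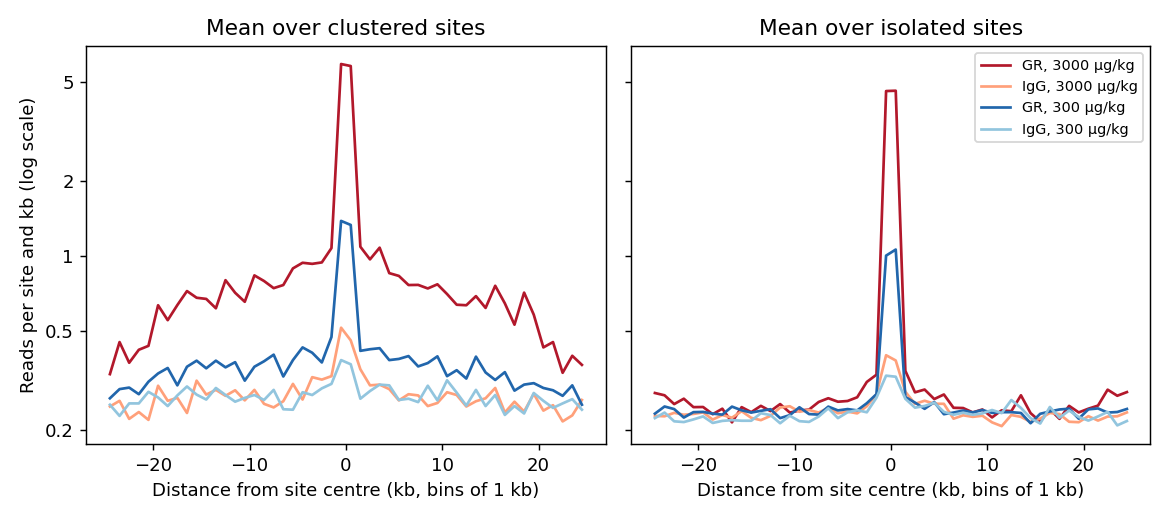
Mean reads per site and kb (vertical axis, log scale) by distance from the site centre in kb (horizontal axis, bins of 1 kb), for clustered (left) and isolated sites (right) and for all 4 libraries. The broad shoulder of GR at the high dose around clustered sites includes the reads of neighbouring sites, and GR at the low dose lies above both IgG lines within it.

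The shoulder around clustered sites was visible at the low dose too. At 3 to 4 kb to the right of the centre, GR reads per site and kb were 0.427 at the low dose around clustered sites against 0.305 for IgG. Around isolated sites the same distance held 0.244 GR and 0.250 IgG reads. At the 1 kb to the right of the centre the GR values were 1.33 and 1.06. The shoulder includes neighbouring sites themselves, each counted once for every site near it.

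The groups with most reads are described next. Groups were named by a rule that took the 8 with most sites, the 8 with most GR reads at each dose and, among groups with at least 20 GR reads at the high dose, the 5 with the fewest at the low dose per read at the high dose. In the last list 9 groups tied at 0, and those with most reads at the high dose were taken first. These lists overlapped, and 20 groups were named. All counts below are reads, given first for GR at the high dose and then for GR at the low dose. Ratios of doses are scaled to library size and are raised by the choice of sites on reads at the high dose.

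Counting only bins that were part of sites, the group with most reads at both doses lay on chromosome 1 from 226413001 to 226433000 and held 98 and 28 GR reads in 4 sites, with 4 and 2 IgG reads. Its main site, from 226414501 to 226416000, held 69 and 18 GR reads and no IgG read (adjusted p = 2.61e-19 at the low dose, exact Poisson). The site to its left, from 226413001, held 13 and 7 reads, and that from 226420501 held 11 and 2. Both also passed at the low dose, whereas the weakest, from 226432501, held 5 and 1 and did not (adjusted p = 0.401, exact Poisson). The sites of this group thus kept the same order at the lower dose.

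The largest group, of 7 sites, lay on chromosome 17 from 19198001 to 19231500 and held 94 GR reads at the high dose and 10 at the low dose. From left to right its sites held 8, 5, 10, 13, 21, 18 and 19 GR reads at the high dose. At the low dose they held 0, 0, 0, 1, 0, 0 and 9. The 9 reads of the last site, from 19231001, passed the test (adjusted p = 3.04e-12, exact Poisson), while the neighbouring sites with 21 and 18 reads at the high dose held 0 at the low dose. The ratio of doses of the whole group was 9.36 (4.87 to 20.1).

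Groups of 5 and 6 sites differed from each other in how many of their sites passed at the low dose. On chromosome 2 from 180062001 to 180083500, 6 sites held 45 and 13 GR reads, and the sites from 180075501 and 180079501 passed at the low dose with 6 and 4 reads. On chromosome 3 from 87816501 to 87861000, 5 sites held 5, 20, 17, 11 and 5 GR reads at the high dose and 1, 5, 9, 4 and 5 at the low dose, and all but the first passed. On chromosome 6 from 128926501 to 128969500, 4 of 5 sites passed, among them the site from 128929001 with 13 and 7 reads. In contrast, none of the 5 sites on chromosome 3 from 4252001 to 4300500 passed, with 39 reads at the high dose, 3 at the low dose and 0 IgG reads at either dose. On chromosome 13 from 88342501 to 88366000, 3 of 5 sites passed, in a group with 11 GR and 5 IgG reads at the low dose.

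**Figure D4:**
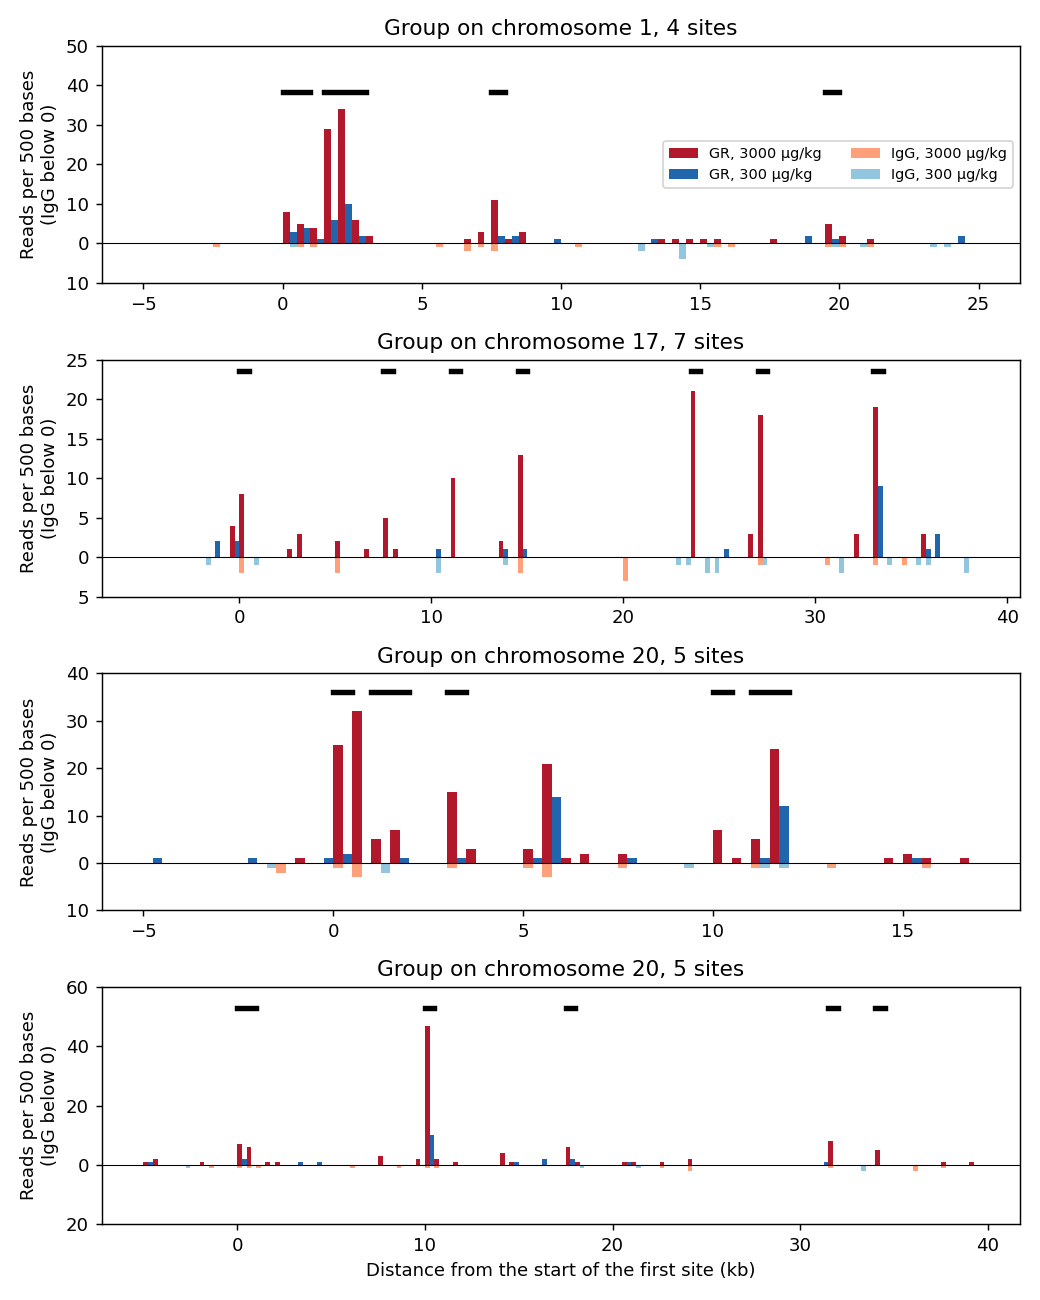
Reads per 500 bases in the 4 groups whose sites held most GR reads at the high dose, with GR above and IgG below the axis, by distance in kb from the start of the first site. Black bars mark sites. In the group on chromosome 17 the last of 7 sites holds 9 GR reads at the low dose and the others 0 or 1.

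A pair of groups lay close together on chromosome 20. The first, from 6649501 to 6684000, held 79 and 14 GR reads in 5 sites, of which the site from 6659501 to 6660000 took 47 and 10. The second, from 6752001 to 6764000, held 88 and 17 GR reads in 5 sites. Its right-hand site, from 6763001 to 6764000, held 29 and 13 reads and passed at the low dose (adjusted p = 2.11e-09, exact Poisson). Its left-hand site, from 6752001 to 6752500, held 25 and 2 and did not pass (adjusted p = 0.244, exact Poisson). Outer sites of the same group, counted as 25 and 29 reads at the high dose, thus held 2 and 13 GR reads at the low dose. Their strength at the high dose was not alike beyond the sites. The left-hand site directly adjoined a bin, from 6752501, with 32 and 0 GR reads that the limit on IgG reads had kept from being a site. Its background of 0.563 reads at the low dose also included such a bin, from 6757501, with 14 reads.

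The limit on IgG reads kept some strong bins out of the groups. Over the chromosomes 328 bins with 5 or more GR reads at the high dose were kept out by it, and 32 of them lay in or directly beside 26 of the groups, 3 of which were named groups. Of these, 23 lay inside a group and 9 next to its outer site. At 24 clustered sites (2.48%) and 25 isolated sites (0.738%) such a bin was directly adjacent, and at 18 clustered sites (1.86%) it held more GR reads than any bin of the site, so that these sites lay at the edge of a stronger run. In the second group on chromosome 20 they were the bin from 6752501 with 32 and 0 GR reads and the bin from 6757501 with 21 and 14, each with 3 IgG reads at the high dose. The first of them lies directly between the sites from 6752001 and 6753001, so that 1 continuous run of bins was split there and counted as 2 sites, with 25 and 12 reads. On chromosome 8, the group from 51994001 to 52027000 held 55 and 26 GR reads in 4 sites, of which the site from 52017501 held 29 and 19. The bins from 52001001, 52014001 and 52015001 were kept out there, with 78, 41 and 50 GR reads at the high dose and 19, 8 and 20 at the low dose against 4, 5 and 5 IgG reads of both doses. With them this group would hold 224 and 73 GR reads, the most of all groups. These bins entered the local background of their neighbours, which raised the number of reads needed to pass.

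Among pairs, the strongest at both doses lay on chromosome 1 from 77410001 to 77412500, with 60 and 20 GR reads at its left site and 18 and 4 at its right, and both passed. On chromosome 4 from 124715001 to 124723500 the sites held 40 and 10, and 24 and 8, and both passed. On chromosome 3 from 119234001 to 119237500 the site from 119237001 held 39 and 18 reads, and its neighbour 8 and 1. The ratios of doses of these 3 pairs were 3.23 (2.02 to 5.35), 3.54 (2.07 to 6.35) and 2.46 (1.42 to 4.44).

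Groups of 4 with 1 dominant site were found on chromosomes 4 and 10. The former, from 10300501 to 10324000, held 63 and 23 GR reads, of which the site from 10322501 took 41 and 17. The latter, from 103439001 to 103450000, held 65 and 13, of which the site from 103449501 took 41 and 11, and its other sites held 10 and 2, 5 and 0, and 9 and 0. In both the dominant site was also the one with most GR reads at the low dose.

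Other groups held many reads at the high and none at the low dose. Of the 174 groups with at least 20 GR reads at the high dose, 9 had 0 at the low dose. The strongest of them, on chromosome 1 from 203324001 to 203343500, held 5, 29 and 29 GR reads in its 3 sites. Over the group this is 20.9-fold the 3 reads that a count of 0 at the low dose was taken to allow. This ratio and those below are scaled to library size and take the count at the high dose as exact. They are not interval limits like those of other groups, and these groups were picked for their low counts at the low dose. The pair on chromosome 1 from 171080001 to 171083000 held 17 and 16 reads (10.9-fold). The 3 sites on chromosome 6 from 24199501 to 24214500 held 8, 18 and 5 (10.3-fold). The pair on chromosome 3 from 149476501 to 149486000 held 10 and 13 reads (7.63-fold). A pair on chromosome 10, between 60195501 and 60201500, held 12 and 11 and has the same ratio. A group on chromosome 19 from 11073001 to 11089500, outside the rule and added for its tie with these at 23 reads, held 7, 11 and 5 in its 3 sites. Inside the pair on chromosome 10, the bin from 60196001 directly adjoined the left-hand site. Kept out by 5 IgG reads, this bin held 70 GR reads at the high dose and 1 at the low dose. The left-hand site with 12 reads thus lay at the edge of a stronger run. With the bin, the group would hold 93 and 1 GR reads and would no longer have 0 at the low dose.

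**Figure D5:**
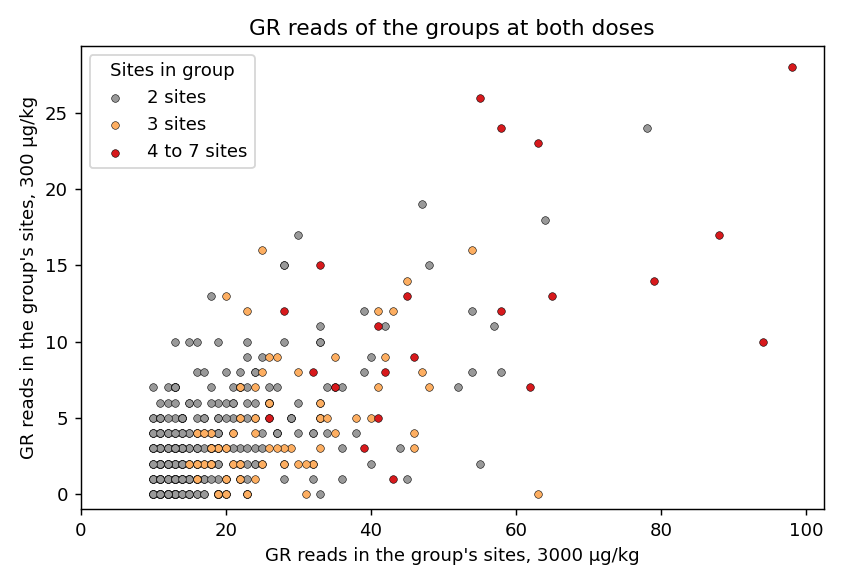
GR reads in the sites of each of the 421 groups at the low dose (vertical axis) and at the high dose (horizontal axis), coloured by number of sites. The group with most reads holds 98 and 28, and a group of 3 sites with 63 reads at the high dose holds 0 at the low dose.

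Over all groups, GR reads at the high dose ranged from 10 to 98 with a median of 18, and at the low dose from 0 to 28 with a median of 3. No GR read at the low dose was found in 65 groups (15.4%). In the other 356 the ratio of doses ranged from 1.29 to 44.8 with a median of 5.18. The largest ratio rested on 45 and 1 GR reads and had an interval of 7.64 to 1808. Group sums at the doses were related with a Spearman's rho of 0.501 over the 421 groups, which differ in their number of sites. Summed over all clustered sites the ratio of doses was 5.26, and over isolated sites 5.42, both raised by the choice of sites.

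Counting fragments in place of reads reduced the number of clustered sites. With both ends of a fragment merged in all libraries, 2227 sites remained in all and 384 of them (17.2%) were clustered, in 168 groups. Of the 967 clustered sites counted on reads, 552 (57.1%) overlapped a site on fragments and 348 (36.0%) a clustered one, against 45.7% of isolated sites that overlapped a site. On fragments the rule gave 29 and 11 sites in the IgG libraries, with 0 clustered in either. GR fragments at the low dose exceeded background at 134 of 384 clustered sites (34.9%), beside 35.9% of all sites on fragments, and at 36.1% of isolated ones. The difference was -1.23 points (-6.34 to 4.13; Fisher's exact p = 0.682).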

How the data were processed

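The authors deposited read alignments in which every line counts 1 read, as the values show, and the unit is the read count. The labels describe library preparation for the high dose only. The submitters' processing notes name build rn4, bedtools and MACS without their roles. Aligner, versions and filters were not given in the sources used here, nor was how all 4 libraries came to hold equal numbers of reads.

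Read starts were shifted downstream by 75 bases, towards the middle of the fragment, and were counted in bins of 500 bases from position 0 on chromosomes 1 to 20 and X. Fragments were counted by merging a plus and a minus read start 50 to 140 bases apart. Whether merged reads came from the same fragment was not established, and reads of different fragments at a dense site can be merged too. Named groups followed the rule given with them. Class comparisons used Fisher's exact test, adjusted over 5 comparisons, and Newcombe intervals for differences. Exact Clopper-Pearson or Poisson intervals were used otherwise, and a normal interval on the log scale for the odds ratio between sites. Where reads are both ends of a fragment they are not independent, and intervals and p-values on reads are then too small. Intervals and p-values over sites of 1 group are too small as well. For ratios of doses, a count of 0 was taken to allow 3. Members, lists and tests were chosen with earlier results of these data known. Fragments, other minimums, distance limits, shifts and backgrounds were tried as alternatives. Response elements and genes near sites were not examined, since no rn4 genome was used here. The scripts were tested on simulated data and used Python 3.11.15, numpy 2.4.6, pandas 2.3.3 and scipy 1.17.1.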

Additional observations from a re-analysis of the deposited data

How the results depend on the processing

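The number of clustered sites was 216 with at least 8 GR reads at 3000 µg/kg per bin, 445 with 0 IgG reads, 595 and 1629 with distance limits of 10 and 50 kb, and 384 on fragments. The share of clustered sites past the background at 300 µg/kg was 42.1% with at least 8 reads and 24.9% with 0 IgG reads. It was 39.8% with the genome mean as background and equally 39.8% with a plain minimum of 2 GR reads. The difference between clustered and isolated sites reversed to -7.43 points with at least 8 reads, to -2.97 with 0 IgG reads and to -1.23 on fragments. With p-values adjusted as in the report, it was past the threshold at 4.61 points with no shift and at 5.47 with the genome mean or the minimum of 2 reads. The odds ratio of GR to IgG reads between sites fell short of the threshold at 1.10 with at least 8 reads, 1.10 with 0 IgG reads and 1.15 on fragments. The odds ratio within pairs turned to 0.824 with 0 IgG reads. The cause of these changes was not tested. The settings with fewer sites also had fewer pairs. The share of pairs with the same order at both doses kept its direction and passed the threshold in all 8 alternatives tried. Equal odds were not to be expected of sites of unequal strength in any of them, so these tests do not set pairs apart. The 8 alternatives were added after seeing the data, as were the stretches with 1000 or 2000 bases next to sites left out, without their largest stretch or without bins of 5 or more GR reads. No paired analysis was possible because each group held 1 library. Depth limited each site to few reads at 300 µg/kg, where the genome mean was 0.0844 GR reads per 500 bases.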
